A study of Homo sapiens with 6 samples.

Results

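The 40 genes described here encode the machinery that licenses, starts and carries out DNA replication, the enzymes that supply its nucleotides, the factors that assemble chromatin on new DNA, and the E2F and cyclin E genes that govern entry into S phase. The rule lists them by name and role and uses no measured value. A gene was read only from probe sets that the array's annotation assigned to that gene and no other. All 40 were found among the 19775 genes with such a probe set, on 77 probe sets, and all 40 were bright enough to be tested, as were 12639 genes in all. The cells were A549, an established human lung adenocarcinoma line, and RNA came from 3 stable lines made with lentiviral vectors that carry a hairpin RNA switched on by doxycycline (DOX). Lines shCNOT3-1 and shCNOT3-2 carried hairpins against different sequences of CNOT3, a subunit of the CCR4-NOT complex that shortens the poly(A) tails of mRNAs, and line shNTC carried a non-targeting hairpin. Each line was sampled after 72 hours with 1 ug/ml DOX and without DOX, on 1 Affymetrix expression array each, 6 arrays in all. A DOX change within a line therefore had no replicate, and the 2 hairpins served as the replicates of knockdown (n = 2). The labels mention no separate cultures behind the arrays. The spread that p-values are set against is therefore the spread among these 6 arrays, which may be technical. Each stable line is a model of its own, and differences between lines hold both the hairpin and the history of the line.

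Replication origins are licensed in G1, when the origin recognition complex, CDC6 and CDT1 load the MCM helicase onto DNA. In S phase the helicase is activated by CDC45 and the GINS complex, DNA polymerases alpha, delta and epsilon copy the strands on the PCNA clamp that replication factor C loads, and FEN1 and DNA ligase I join the Okazaki fragments of the lagging strand. E2F transcription factors, released from the retinoblastoma protein as cyclin D and cyclin E kinases become active, switch on many of these genes shortly before S phase. In a bulk RNA sample, fewer cells in S phase and less of an mRNA per cell cannot be told apart.

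Because E2F factors bind the start regions of many replication genes, the promoters of the genes on which the results turn are shown first. RefSeq promoter sequences (GRCh38.p14) were found for 35 of the 40 genes (not for MCM4, MCM5, GINS4, POLD3 and CCNE2), and the 250 bases before each gene start were searched on both strands. The motifs were the E2F-like octamers TTTCGCGC, TTTGGCGC, TTTCCCGC and TTTGGCGG, the NF-Y-like CCAAT, the CHR-like TTTGAA and the SP1-like GGGCGG. FEN1, GINS1, MCM3 and RRM1 are the genes with the lowest p-values among those with a sequence to show, and MCM6 and CDC6, chosen after their values were seen, are the other genes with an unadjusted p under 0.05 that hold an octamer. The sequences run 5′ to 3′ on the gene's strand and end at the last base before the start, with E2F-like octamers in capitals. They lie at chr11:61792661-61792910 (plus strand), chr20:25407423-25407672 (plus strand), chr6:52284743-52284992 (minus strand), chr11:4094435-4094684 (plus strand), chr2:135876444-135876693 (minus strand) and chr17:40287629-40287878 (plus strand), in the order printed.
FEN1: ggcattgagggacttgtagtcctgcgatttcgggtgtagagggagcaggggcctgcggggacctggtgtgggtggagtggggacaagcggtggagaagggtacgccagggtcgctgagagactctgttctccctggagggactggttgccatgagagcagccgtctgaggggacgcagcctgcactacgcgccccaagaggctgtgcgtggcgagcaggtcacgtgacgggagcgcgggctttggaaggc
GINS1: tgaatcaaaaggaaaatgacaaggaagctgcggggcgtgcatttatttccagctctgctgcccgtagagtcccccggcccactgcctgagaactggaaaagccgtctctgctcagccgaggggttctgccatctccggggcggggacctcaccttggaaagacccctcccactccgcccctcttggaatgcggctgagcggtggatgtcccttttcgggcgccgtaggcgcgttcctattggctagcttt
MCM3: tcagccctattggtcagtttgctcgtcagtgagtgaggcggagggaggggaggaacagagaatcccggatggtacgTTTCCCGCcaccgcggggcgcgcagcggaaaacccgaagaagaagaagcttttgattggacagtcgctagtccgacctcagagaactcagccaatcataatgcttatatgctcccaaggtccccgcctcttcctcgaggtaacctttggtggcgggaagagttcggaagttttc
RRM1: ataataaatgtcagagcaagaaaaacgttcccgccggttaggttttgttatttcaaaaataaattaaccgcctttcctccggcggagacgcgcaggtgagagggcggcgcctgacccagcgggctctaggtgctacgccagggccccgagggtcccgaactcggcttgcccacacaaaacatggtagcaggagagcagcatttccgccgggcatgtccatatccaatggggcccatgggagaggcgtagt
MCM6: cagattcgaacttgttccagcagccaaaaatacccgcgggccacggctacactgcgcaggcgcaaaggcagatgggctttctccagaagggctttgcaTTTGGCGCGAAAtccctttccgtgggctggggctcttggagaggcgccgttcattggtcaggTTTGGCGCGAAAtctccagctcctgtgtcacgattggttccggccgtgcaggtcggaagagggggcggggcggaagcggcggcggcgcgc
CDC6: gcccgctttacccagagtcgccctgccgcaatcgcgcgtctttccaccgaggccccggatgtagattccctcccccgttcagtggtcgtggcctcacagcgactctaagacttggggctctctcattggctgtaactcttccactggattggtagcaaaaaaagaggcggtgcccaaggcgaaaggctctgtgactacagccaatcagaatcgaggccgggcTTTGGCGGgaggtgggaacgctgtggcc

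MCM3 held TTTCCCGC between 174 and 167 bases before the start, and CDC6 held TTTGGCGG between 28 and 21 bases before it. MCM6 held TTTGGCGC at 152 to 145 and again at 90 to 83 bases before its start. Each of those overlaps a reverse-strand match to TTTCGCGC, at 148 to 141 and at 86 to 79, so the 4 matches in MCM6 lie at 2 places. FEN1 had none of the 4 motif classes in this window, while GINS1 and RRM1 had no octamer but held CCAAT and GGGCGG. An E2F-like octamer was in 16 of the 35 promoters (45.7%), against 2.91% of all 27305 promoters of the table and 3.89% of its 15843 protein-coding ones. CCAAT was in 19 (54.3%, against 34.5% of protein-coding promoters), GGGCGG in 26 (74.3%, against 56.0%) and TTTGAA in 1, RRM1 (2.86%, against 10.8%). A match is a run of letters, not a bound site. Genes with and without an octamer had close medians of DOX change, which were not tested against each other. The 16 genes with an octamer had median log2 changes of -0.30 in shCNOT3-1, -0.26 in shCNOT3-2 and -0.19 in shNTC, and the 19 without one had -0.29, -0.18 and -0.16 in the same lines. Of the genes with an unadjusted p under 0.05 in the knockdown test, 3 had the octamer and 4 did not.

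CNOT3 itself, the check of the labels, read 81.9 with DOX and 227 without in shCNOT3-1, 46.9 and 228 in shCNOT3-2, and 166 and 178 in shNTC, as MAS5 intensity. The DOX arrays thus had 36.1%, 20.5% and 93.4% of the uninduced level. A dimmer CNOT3 probe set (229143_at) was left at 22.3% and 21.0% in the shCNOT3 lines, but also at 36.9% in shNTC. Of the markers of epithelial cells and A549, 9 of 9 measured were over the filter. Their summed intensity was 227647 to 228167 in the shCNOT3 arrays with DOX against 219922 to 251823 in the other 4. They were not all bright, and EPCAM, the dimmest, read 132 to 372. Leukocyte markers, of which 2 of 4 were over the filter, summed to 353 to 439 in the shCNOT3 arrays with DOX against 251 to 388 in the others. Fibroblast markers (2 of 4) summed to 564 to 699 against 438 to 580, and endothelial markers (1 of 4) to 258 to 297 against 167 to 413. The ratio of 3′ to 5′ signal of ACTB, a sign of RNA quality, was 1.42 with DOX and 1.33 without in shCNOT3-1, 1.45 and 1.36 in shCNOT3-2, and 1.47 and 1.58 in shNTC. That of GAPDH stayed between 0.966 and 1.09. Their part in the results below was not tested.

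Taken as a group, the replication genes read lower with DOX in all 3 lines. The medians were lower in the shCNOT3 lines than in shNTC. With the shNTC change subtracted gene by gene, however, the median in shCNOT3-2 was near that of all genes tested. The median log2 change was -0.34 in shCNOT3-1, -0.26 in shCNOT3-2 and -0.17 in shNTC, while the median over all genes tested was 0.05, 0.02 and -0.01 in the same lines. With DOX, 34 of the 40 genes were lower in shCNOT3-1 (45.5% of all genes), 31 in shCNOT3-2 (48.2%) and 33 in shNTC (51.2%). The genes were lower in both shCNOT3 lines in 27 cases, against a background of 26.9% of genes tested. On the probe sets used, 2 genes were higher in both, MCM7 and RFC2, against 33.2%. On its other probe set, MCM7 (208795_s_at) was -0.06 in shCNOT3-1 and 0.20 in shCNOT3-2, and RFC2 (1053_at) was -0.13 and 0.19. The 40 genes were lower in all 3 lines in 21 cases (background 13.4%). On the probe sets used for the genes, both hairpins gave a larger drop than shNTC in 13 cases (background 19.2%): MCM3, MCM10, GINS1, GINS3, GINS4, POLA1, POLA2, POLD1, RFC5, FEN1, RRM1, E2F1 and CCNE2. Once the shNTC change was subtracted, the median of the 40 genes was -0.16 in shCNOT3-1 and 0.03 in shCNOT3-2, against 0.06 and 0.03 over all genes tested. The hairpins share these shNTC arrays as their reference.

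**Figure D1:**
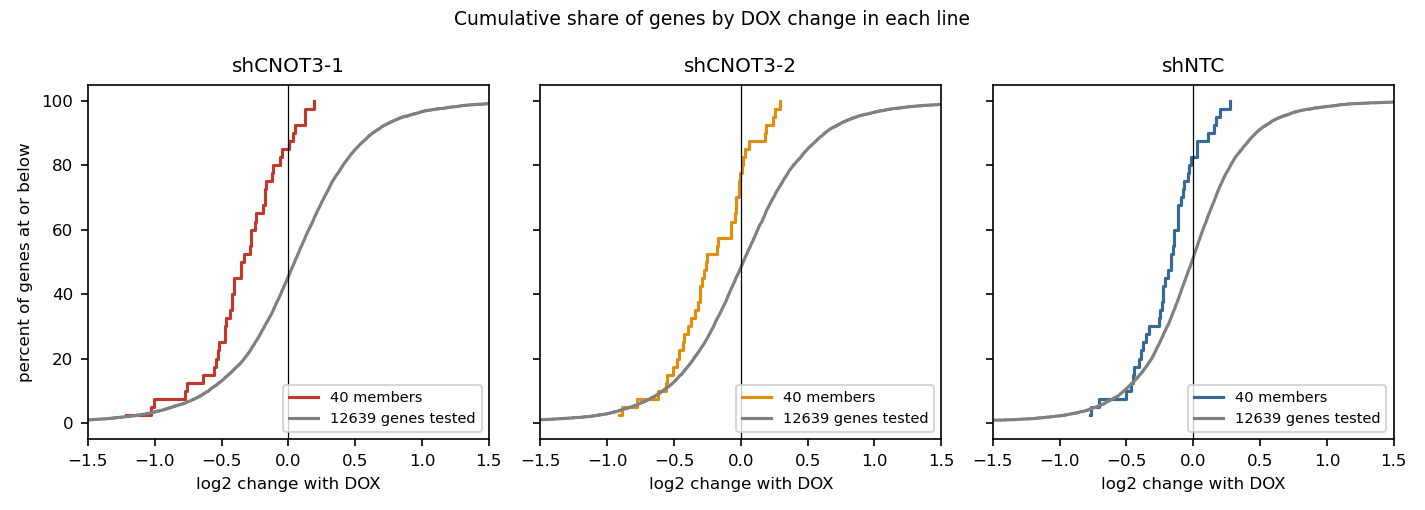
Cumulative percent of genes (vertical axis) at or below a given log2 DOX change (horizontal axis, with DOX minus without DOX) in each line, for the 40 replication genes (coloured) and the 12639 genes tested (grey). The coloured curve lies left of the grey one over most of its length in all 3 lines, with medians of -0.34 in shCNOT3-1, -0.26 in shCNOT3-2 and -0.17 in shNTC.

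The knockdown test asked whether the DOX changes of shCNOT3-1 and shCNOT3-2 averaged other than zero, with the line as a block (limma, Benjamini-Hochberg adjustment over all genes tested). It had no DOX term, so its residual spread holds the shNTC DOX change as well as the difference between hairpins. The SE values below come from this fit, with variances moderated over all genes. They are not the spread of the hairpins (for RRM1, an SE of 0.133 and a hairpin SD of 0.033). None of the 40 genes passed an adjusted p of 0.05, and 37 genes in all did (0.293%). At an unadjusted p under 0.05, 8 of the 40 were lower (background 7.09%) and 0 were higher (background 7.45%). The 8 were FEN1, CCNE2, GINS1, MCM3, RRM1, CDC6, GINS3 and MCM6. Without the shCNOT3-1 arrays the count was 3. In the test of the change beyond that of shNTC, limma called no gene on the array at the adjusted threshold (0%). At an unadjusted p under 0.05, 495 genes were lower (3.92%) and 568 higher (4.49%). Of the 40, GINS1, FEN1 and CCNE2 were lower (3 of 40) and 0 were higher. On the arrays themselves, both shCNOT3 readings with DOX lay below the other 4 readings for 17 of the 40 genes (background 12.8%) and above them for 1, MCM7 (background 16%). FEN1 and CCNE2 were at least 1.5-fold lower in both hairpins (2 of 40, background 2.69%). Per line, 6 genes were at least 1.5-fold lower in shCNOT3-1 (MCM3, MCM4, CDC6, POLD3, FEN1 and CCNE2; background 10.5%), 4 in shCNOT3-2 (GINS1, GINS3, FEN1 and CCNE2; background 9.96%) and 3 in shNTC (MCM2, MCM5 and TK1; background 7.88%). These drops of 1.5-fold or more made up 15%, 10% and 7.5% of the 40 genes, against backgrounds of 10.5%, 9.96% and 7.88%, whereas the counts of drops of any size stood further from theirs.

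**Figure D2:**
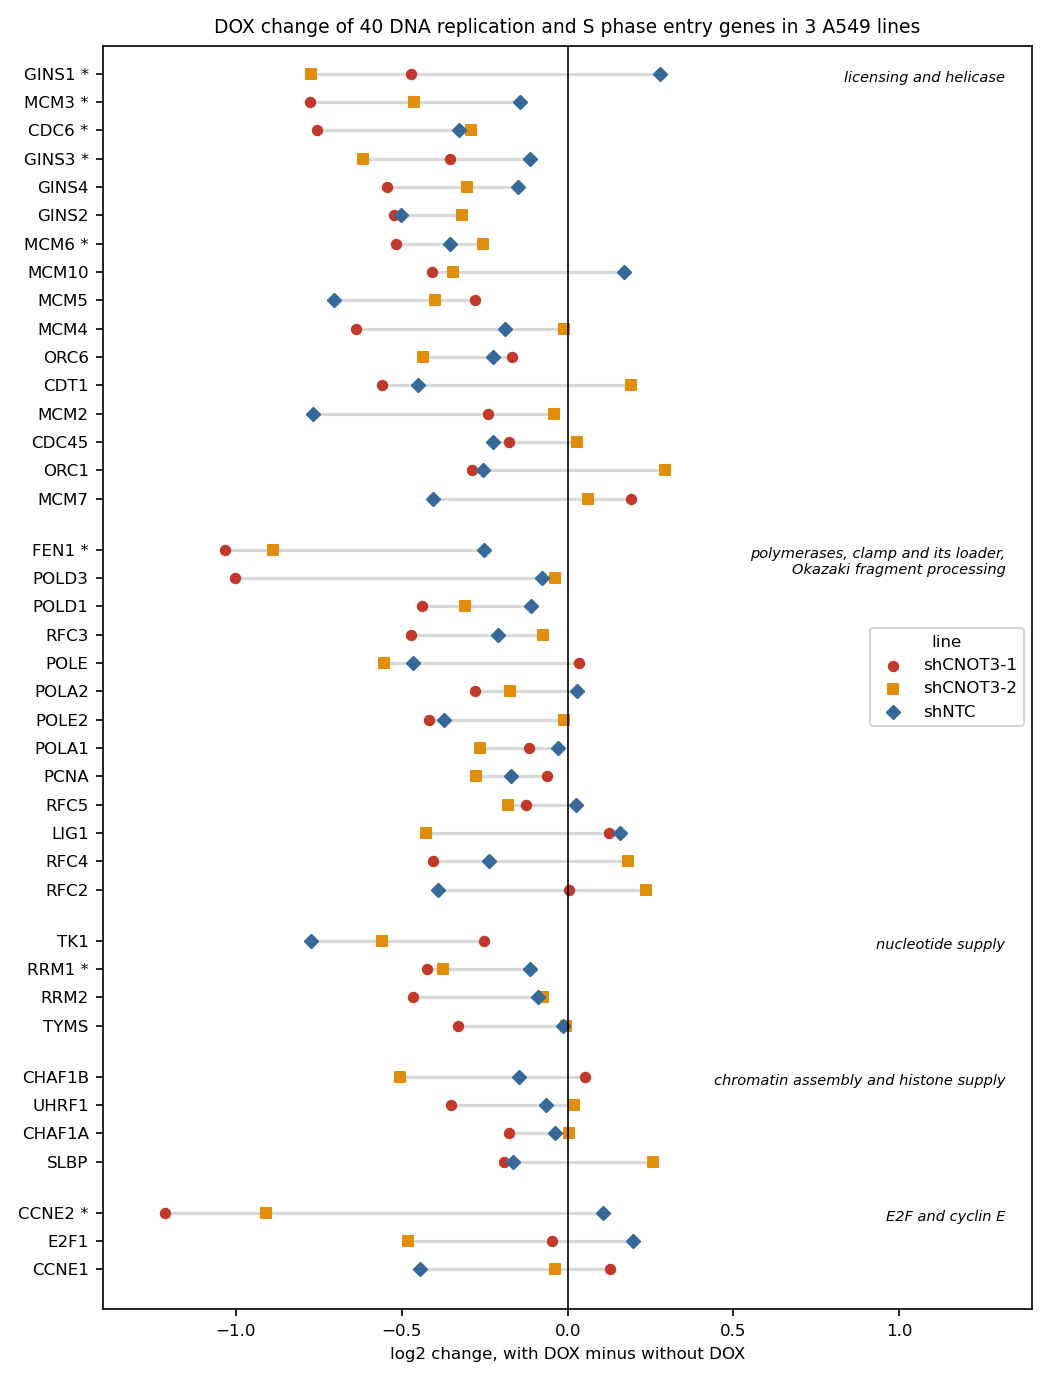
Log2 DOX change (horizontal axis, with DOX minus without DOX) of each of the 40 genes, grouped by role, in shCNOT3-1 (circles), shCNOT3-2 (squares) and shNTC (diamonds). An asterisk marks the 8 genes with an unadjusted p under 0.05 in the knockdown test, of which FEN1 and CCNE2 lie furthest left in both hairpins, and MCM2, MCM5 and TK1 lie furthest left in shNTC.

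Among the 16 licensing and helicase genes, 12 were lower in both hairpins (against 26.9% of all genes) and 1 was higher in both (against 33.2%). Their median change was -0.44 in shCNOT3-1, -0.30 in shCNOT3-2 and -0.24 in shNTC, and 5 had an unadjusted p under 0.05, all lower (against 7.09% of all genes). GINS1 encodes a subunit of the GINS complex, which joins CDC45 and the MCM ring in the active helicase. It read 5979 with DOX and 8299 without in shCNOT3-1, and 4086 and 6987 in shCNOT3-2. In shNTC it read 8593 with DOX and 7084 without. Both shCNOT3 arrays with DOX were the lowest of the 6, whereas the shNTC array with DOX was the highest. The mean log2 change was -0.62 ± 0.17 (SE, n = 2; adjusted p = 0.150), and the change beyond shNTC was -0.90 (unadjusted p = 0.0091, adjusted p = 0.419).

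The other GINS subunits were lower with DOX in every line on the probe sets used (against 13.4% of all genes). GINS3 read 903 with DOX and 1156 without in shCNOT3-1, 802 and 1231 in shCNOT3-2, and 1091 and 1180 in shNTC. Its shCNOT3 arrays with DOX were the lowest, and the mean change was -0.49 ± 0.20 (SE, adjusted p = 0.307). GINS4 changed by -0.55 in shCNOT3-1, -0.30 in shCNOT3-2 and -0.15 in shNTC on the log2 scale, and GINS2 by -0.52, -0.32 and -0.50 in the same lines. GINS2 was thus about as much lower in the control line as in the shCNOT3 lines. CDC45, the partner of GINS, was -0.18 in shCNOT3-1, 0.03 in shCNOT3-2 and -0.22 in shNTC.

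The MCM2 to MCM7 proteins form the ring of the replicative helicase. On the probe sets used, all 6 of their mRNAs were lower with DOX in shNTC (against 51.2% of all genes). MCM3 read 2310 with DOX and 3955 without in shCNOT3-1, 3481 and 4794 in shCNOT3-2, and 4145 and 4579 in shNTC. Its shCNOT3 arrays with DOX were again the lowest of the 6, at 58.4% and 72.6% of the uninduced level against 90.5% in shNTC, with a mean change of -0.62 ± 0.17 (SE, adjusted p = 0.164). MCM6 read 6195 with DOX and 8866 without in shCNOT3-1, 7891 and 9426 in shCNOT3-2, and 6277 and 8032 in shNTC. Here the groups overlapped, since the shNTC array with DOX was lower than that of shCNOT3-2. Its mean change of -0.39 ± 0.17 (SE, adjusted p = 0.332) differed from the shNTC change by -0.03.

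MCM2 and MCM5 differed most in the control line. MCM2 read 2813 with DOX and 4790 without in shNTC, a log2 change of -0.77, the second lowest of the 40 in that line, and it read 3960 with DOX and 4677 without in shCNOT3-1 and 3997 and 4111 in shCNOT3-2. MCM5 changed by -0.28 in shCNOT3-1, -0.40 in shCNOT3-2 and -0.70 in shNTC, and by -0.14, 0.03 and -0.25 on the dimmer 201755_at. MCM4 was -0.64 in shCNOT3-1 but -0.01 in shCNOT3-2 and -0.19 in shNTC. Its dimmer probe sets over the filter differed on this. In the same lines 212142_at was -0.64, 0.05 and 0.23, but 222037_at was -0.50, -0.54 and -0.19, and 212141_at was 0.19, -0.02 and -0.22. On the probe sets used, MCM7 was the exception among the ring subunits, at 0.19 in shCNOT3-1 and 0.06 in shCNOT3-2 against -0.41 in shNTC. On 208795_s_at it was -0.06, 0.20 and -0.49 in the same lines. MCM10, which helps to activate the helicase, was -0.41 and -0.34 in the shCNOT3 lines and 0.17 in shNTC (knockdown unadjusted p = 0.0702). Its other probe sets were lower in shNTC too. In shCNOT3-1, shCNOT3-2 and shNTC, 222962_s_at was -0.45, -0.71 and -0.70, and 223570_at was -0.62, -0.16 and -0.29.

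Of the loading factors, CDC6 read 1166 with DOX and 1971 without in shCNOT3-1, 1534 and 1878 in shCNOT3-2, and 1769 and 2221 in shNTC. Both shCNOT3 arrays with DOX were the lowest, but the drop in shCNOT3-2 (-0.29) was no larger than that in shNTC (-0.33), and the mean change was -0.52 ± 0.21 (SE, adjusted p = 0.301). CDT1, which loads MCM together with CDC6, was -0.56 in shCNOT3-1, 0.19 in shCNOT3-2 and -0.45 in shNTC. Its 3 arrays without DOX spread most of the 40 genes, with an SD of 0.388 log2 units, against a median SD of 0.110 over the 40. On the dimmer CDT1 probe set 209832_s_at both hairpin signs were reversed, at 0.50 in shCNOT3-1, -0.80 in shCNOT3-2 and -0.78 in shNTC. ORC1 and ORC6 encode subunits of the origin recognition complex. ORC1 was -0.29 in shCNOT3-1, 0.29 in shCNOT3-2 and -0.26 in shNTC, and ORC6 was -0.17, -0.43 and -0.22 in the same lines.

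**Figure D3:**
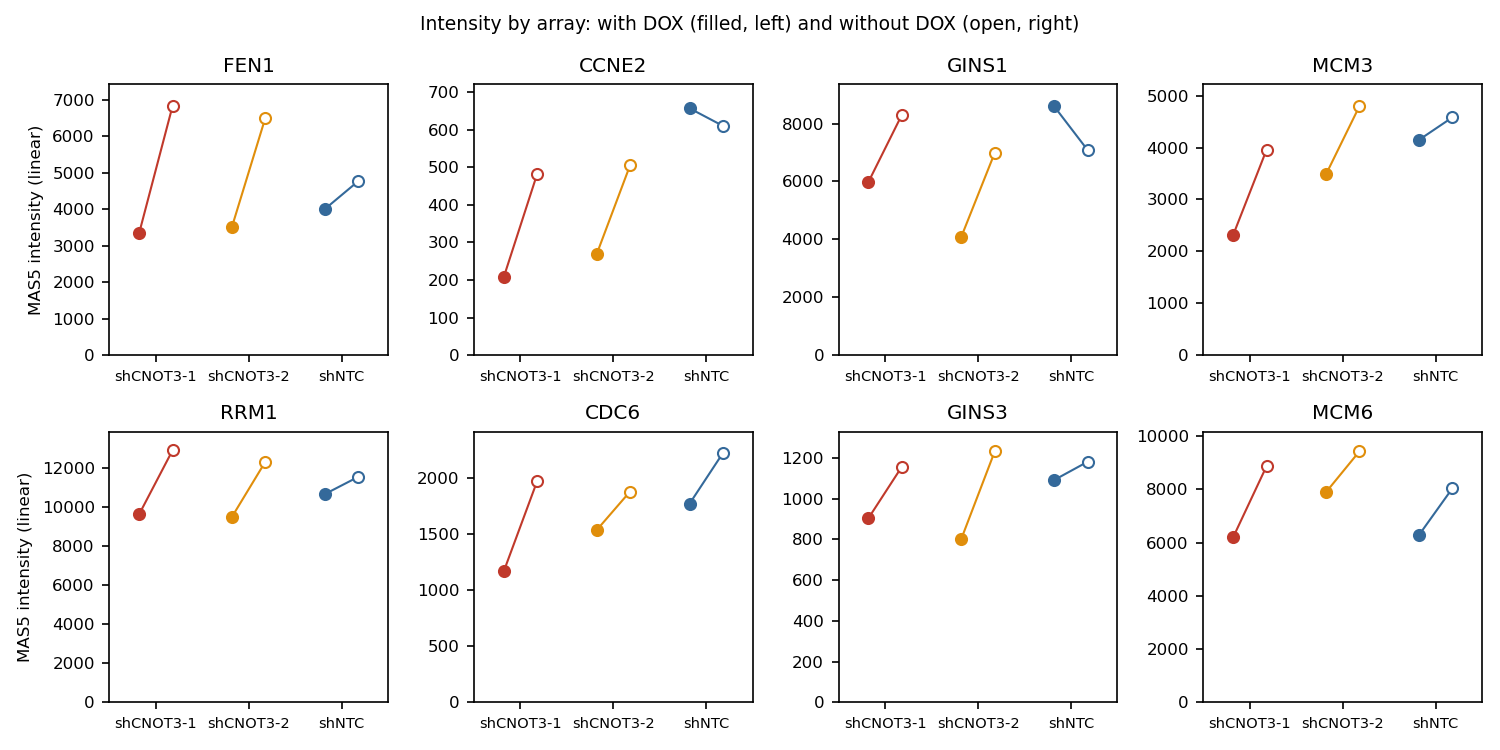
MAS5 intensity (vertical axis, linear, from 0) of the 8 genes with an unadjusted p under 0.05 in the knockdown test, on each of the 6 arrays. In each line the filled point on the left is the array with DOX and the open point on the right the array without, and in all but MCM6 both filled shCNOT3 points lie below the other 4 points.

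The 13 genes for polymerases, the clamp and its loader and Okazaki fragment processing had a median change of -0.28 in shCNOT3-1, -0.18 in shCNOT3-2 and -0.17 in shNTC. In this group 9 were lower in both hairpins (against 26.9% of all genes) and 1 was higher in both (against 33.2%). FEN1 alone had an unadjusted p under 0.05, and 1 in 13 (7.69%) is near the share of 7.09% over all genes. FEN1 encodes the flap endonuclease that trims the 5′ ends of Okazaki fragments. It read 3336 with DOX and 6821 without in shCNOT3-1, 3515 and 6506 in shCNOT3-2, and 4003 and 4768 in shNTC. With DOX, 48.9% and 54.0% of the uninduced level was left in the shCNOT3 lines, against 83.9% in shNTC. FEN1 had the lowest p of the 40 genes, with a mean change of -0.96 ± 0.17 (SE, n = 2; adjusted p = 0.0529), just outside the threshold, and a change beyond shNTC of -0.71 (adjusted p = 0.561). It passed without the shNTC arrays (adjusted p = 0.0461) and under a stricter filter on dim genes (adjusted p = 0.0486), and its adjusted p ran between 0.0461 and 0.290 over all settings tried. The shNTC line started lower than the others, so that the uninduced arrays spanned 4768 to 6821.

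LIG1, the DNA ligase that seals the fragments, did not follow FEN1 and was 0.12 in shCNOT3-1, -0.43 in shCNOT3-2 and 0.16 in shNTC. PCNA, the sliding clamp, was the brightest of the 40, at 22798 with DOX and 23810 without in shCNOT3-1, 20770 and 25145 in shCNOT3-2, and 18804 and 21156 in shNTC. Its changes of -0.06, -0.28 and -0.17 left a value beyond shNTC of 0.001. The clamp loader subunits lay on both sides of zero: RFC3 was -0.47 in shCNOT3-1, -0.07 in shCNOT3-2 and -0.21 in shNTC, RFC5 was -0.13, -0.18 and 0.03, RFC4 was -0.41, 0.18 and -0.24, and RFC2 was 0.005, 0.24 and -0.39.

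The polymerase genes were lower in most cases. POLD3, an accessory subunit of polymerase delta, was at least 1.5-fold lower in shCNOT3-1 alone, at 673 with DOX and 1349 without, a change of -1.0, against -0.04 in shCNOT3-2 and -0.08 in shNTC. POLD1, the catalytic subunit of the same enzyme, was -0.44 in shCNOT3-1, -0.31 in shCNOT3-2 and -0.11 in shNTC (knockdown unadjusted p = 0.0890). On the probe sets used, POLA1 and POLA2, subunits of the priming polymerase alpha, were each lower by more in both hairpins than in shNTC. The changes in shCNOT3-1, shCNOT3-2 and shNTC were -0.12, -0.26 and -0.03 for POLA1 and -0.28, -0.17 and 0.03 for POLA2. The dimmer POLA2 probe set 244575_at went the other way, at 0.70, 0.51 and -0.23 in the same lines. In polymerase epsilon, POLE was 0.03 in shCNOT3-1, -0.55 in shCNOT3-2 and -0.47 in shNTC, and POLE2 was -0.42, -0.01 and -0.37. On the probe sets used, all of these polymerase genes but POLE were lower in both hairpins, though POLD3 and POLE2 barely so in shCNOT3-2. With 1 array per line and DOX state, such differences between hairpins could not be tested.

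On the probe sets used, all 4 nucleotide supply genes were lower in all 3 lines (against 13.4% of all genes). Their median was -0.38 in shCNOT3-1, -0.22 in shCNOT3-2 and -0.10 in shNTC. RRM1 encodes the large subunit of ribonucleotide reductase, which makes deoxyribonucleotides. It read 9643 with DOX and 12927 without in shCNOT3-1, 9517 and 12349 in shCNOT3-2, and 10686 and 11570 in shNTC. Both hairpins left a near equal share, 74.6% and 77.1%, against 92.4% in shNTC, and the mean change was -0.40 ± 0.13 (SE, adjusted p = 0.225). RRM2, the small subunit, was -0.47 in shCNOT3-1, -0.07 in shCNOT3-2 and -0.09 in shNTC on the probe set used for the gene. TYMS, thymidylate synthase, was -0.33, -0.01 and -0.01 in the same lines. TK1, thymidine kinase, had the lowest shNTC change of the 40, at 1653 with DOX and 2825 without (-0.77), and read 2556 with DOX and 3041 without in shCNOT3-1 and 1897 and 2797 in shCNOT3-2.

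On the probe sets used, none of the 4 chromatin assembly and histone supply genes was lower in both hairpins (against 26.9% of all genes). None was higher in both (against 33.2%), and all 4 were lower in shNTC (against 51.2%). Their medians were -0.18 in shCNOT3-1, 0.01 in shCNOT3-2 and -0.11 in shNTC. CHAF1A and CHAF1B, subunits of chromatin assembly factor 1, were -0.18 and 0.05 in shCNOT3-1, 0.005 and -0.51 in shCNOT3-2, and -0.04 and -0.15 in shNTC. The other CHAF1A probe sets over the filter were lower in both hairpins. In shCNOT3-1, shCNOT3-2 and shNTC, 203975_s_at was -0.39, -0.42 and -0.03, and 203976_s_at was -0.40, -0.22 and -0.07. UHRF1, which brings the maintenance DNA methyltransferase to new DNA, was -0.35, 0.02 and -0.07 in the 3 lines. SLBP, which binds the stem-loop at the end of histone mRNAs, was -0.19, 0.26 and -0.16.

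The cyclin E genes parted ways. CCNE2 encodes cyclin E2, a partner of CDK2 at the start of S phase. It read 207 with DOX and 482 without in shCNOT3-1, 268 and 505 in shCNOT3-2, and 657 and 610 in shNTC. Both shCNOT3 arrays with DOX were below the other 4, at 43.0% and 53.1% of the uninduced level, while shNTC with DOX was at 107.7%. The mean change of -1.06 ± 0.22 (SE, n = 2; adjusted p = 0.0890) was the lowest of the 40, and the change beyond shNTC was -1.17 (unadjusted p = 0.0198, adjusted p = 0.514). CCNE1, which encodes cyclin E1, was 0.13 in shCNOT3-1, -0.04 in shCNOT3-2 and -0.44 in shNTC. E2F1, the activating transcription factor, was the dimmest of the 40 and read 234 with DOX and 242 without in shCNOT3-1, 188 and 263 in shCNOT3-2, and 286 and 249 in shNTC. Its log2 changes were -0.05 in shCNOT3-1, -0.48 in shCNOT3-2 and 0.20 in shNTC, and only GINS1 of the 40 had a higher shNTC change (0.28). On 204947_at, a dimmer probe set, E2F1 was -0.39 in shCNOT3-1, -1.70 in shCNOT3-2 and -0.17 in shNTC, so its shNTC rise was not seen there.

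Of the 40 genes, 23 had more than 1 probe set over the filter. On the mean of the hairpins all probe sets were lower for 16 of these genes, all were higher for 2, and the signs differed for 5. GINS2 showed the widest disagreement, through a dim probe set described below, and RRM2 the next. The RRM2 probe set 201890_at read 5657 with DOX and 11933 without in shCNOT3-1, 3843 and 11978 in shCNOT3-2, and 9428 and 9476 in shNTC. The change of -1.08 and -1.64 in the hairpins, against -0.01 in shNTC, compares with -0.47, -0.07 and -0.09 on 209773_s_at, which was used because it was brighter. When each probe set was tested singly, an alternative added after the data were seen, 201890_at alone among the 72 probe sets of the 40 genes passed an adjusted p of 0.05 (adjusted p = 0.0263; background 0.164%). At an unadjusted p under 0.05, 15 of the 72 were lower (background 7.61%) and 1, GINS2 1557595_at, was higher (background 6.28%). That GINS2 probe set was dim, at 97.9 and 107 in the shCNOT3 arrays with DOX and 32.1 to 103 in the other 4.

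For other genes the second probe set was also informative. MCM6 238977_at was -1.02 in shCNOT3-1, -1.10 in shCNOT3-2 and 0.03 in shNTC, on a dim probe set that read 113 with DOX and 230 without in shCNOT3-1. The second FEN1 probe set (204768_s_at) was -0.34 and -0.30 in the hairpins but -0.42 in shNTC, so the drop in FEN1 beyond shNTC was read by 1 of its 2 probe sets. The second CCNE2 probe set (211814_s_at) was -1.35 and -0.47 in the hairpins and 1.61 in shNTC. RRM1 was lower in both hairpins on both probe sets, with -0.72 and -0.49 on 201476_s_at against 0.11 in shNTC. TK1 202338_at was -0.22 and -0.65 in the hairpins and 0.02 in shNTC, so the shNTC drop of TK1 was not seen on it. Of the 40 genes 18 were read from a probe set whose type (_s_at or _x_at) can also bind other transcripts, among them FEN1 and RRM1, and CDT1, ORC6 and CHAF1A were read from the _x_at type.

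**Figure D4:**
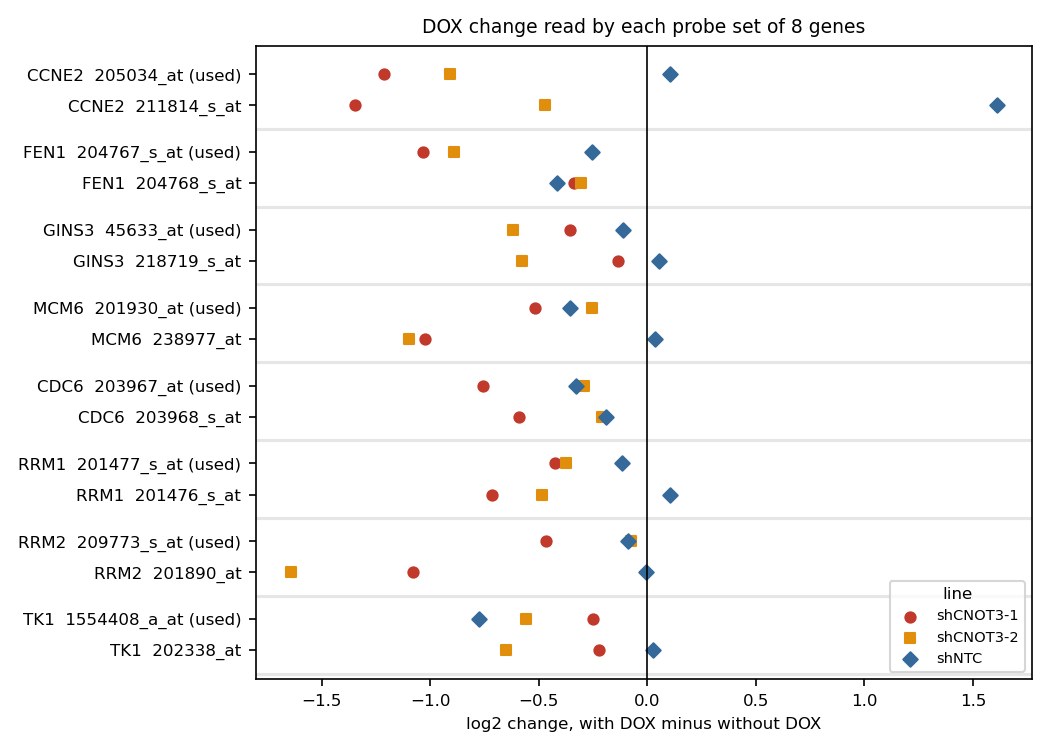
Log2 DOX change (horizontal axis, with DOX minus without DOX) read by each probe set of 8 genes with more than 1, in shCNOT3-1 (circles), shCNOT3-2 (squares) and shNTC (diamonds). The probe set used for the gene is the upper one of each pair, and RRM2 and MCM6 show larger drops in both hairpins on the lower one, while FEN1 shows the reverse.

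The hairpins left 36.1% of CNOT3 in shCNOT3-1 and 20.5% in shCNOT3-2 on the brightest CNOT3 probe set, but 22.3% and 21.0% on the next (229143_at), so the lines have no settled order of knockdown. The replication genes were lower in shCNOT3-1 than in shCNOT3-2 in 26 of 40 cases (background 47.7%), and the change was larger in size in shCNOT3-1 in 25 (background 50.1%). The sign differed between the hairpins for 11 genes (background 39.9%). With 1 array per line and DOX state this difference could not be tested. On the probe sets used, the gene was lower in both hairpins and higher in shNTC in 6 cases (GINS1, MCM10, POLA2, RFC5, E2F1 and CCNE2), near the background of 13.5%. The mean hairpin change lay below the shNTC change for 25 of the 40 (background 46.4%). For 17 genes (background 10.1%) both hairpin drops exceeded the range of the same gene over the 3 arrays without DOX.

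Lists of genes that work beside this machinery were read in the same way. Of 39 other fork, licensing and checkpoint genes tested, 4 were lower (10.3%, against 7.09% of all genes) and 0 higher (against 7.45%) at an unadjusted p under 0.05, and 16 were lower in both hairpins (against 26.9%). Their medians were -0.10 in shCNOT3-1, -0.11 in shCNOT3-2 and -0.17 in shNTC. The 4 were POLE3, a polymerase epsilon subunit (-0.91), ATAD5, which helps unload PCNA (-0.78), the helicase RECQL4 (-0.69) and the nuclease and helicase DNA2 (-0.61), as mean log2 changes of the hairpins. Of 16 other nucleotide supply genes, 1 was lower, thymidylate kinase DTYMK (-0.53), and 1 higher, CTP synthase CTPS1 (0.61, with -0.01 in shCNOT3-1 and 1.23 in shCNOT3-2). Of 12 other chromatin replication genes, 1 was lower, the histone chaperone RBBP4, with -2.18 in shCNOT3-1 and -0.43 in shCNOT3-2. These shares of 1 in 16 (6.25%) and 1 in 12 (8.33%) lie near the share over all genes, and none of the genes named passed the adjusted threshold.

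The other E2F family and G1 to S regulators had the lowest medians of the 5 neighbouring lists in the shCNOT3 lines, -0.24 in shCNOT3-1 and -0.30 in shCNOT3-2, and the highest of the 5 in shNTC, -0.04. Of 29 tested, 7 were lower (24.1%, against 7.09% of all genes) and 1 higher (against 7.45%) at an unadjusted p under 0.05, and 17 were lower in both hairpins (against 26.9%). E2F8, a repressor of the E2F family, read 439 with DOX and 938 without in shCNOT3-1, 406 and 840 in shCNOT3-2, and 785 and 774 in shNTC, a mean change of -1.07 ± 0.20 (SE, adjusted p = 0.0629). CDKN1A, the CDK inhibitor p21, was the gene that was higher, at 2382 with DOX and 969 without in shCNOT3-1, 2202 and 1111 in shCNOT3-2, and 709 and 758 in shNTC. Its mean change was 1.14 ± 0.20 (SE, adjusted p = 0.0529). The CDK inhibitor CDKN2D (-1.39) and RBL1, a relative of the retinoblastoma protein (-0.66), were lower. The 30 mitosis genes had medians of -0.12 in both shCNOT3 lines and -0.22 in shNTC. At an unadjusted p under 0.05, 6 were lower (20%, against 7.09% of all genes) and 0 higher, among them BIRC5 (-0.65), KIF11 (-0.63), CDK1 (-0.51) and TOP2A (-0.49).

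**Figure D5:**
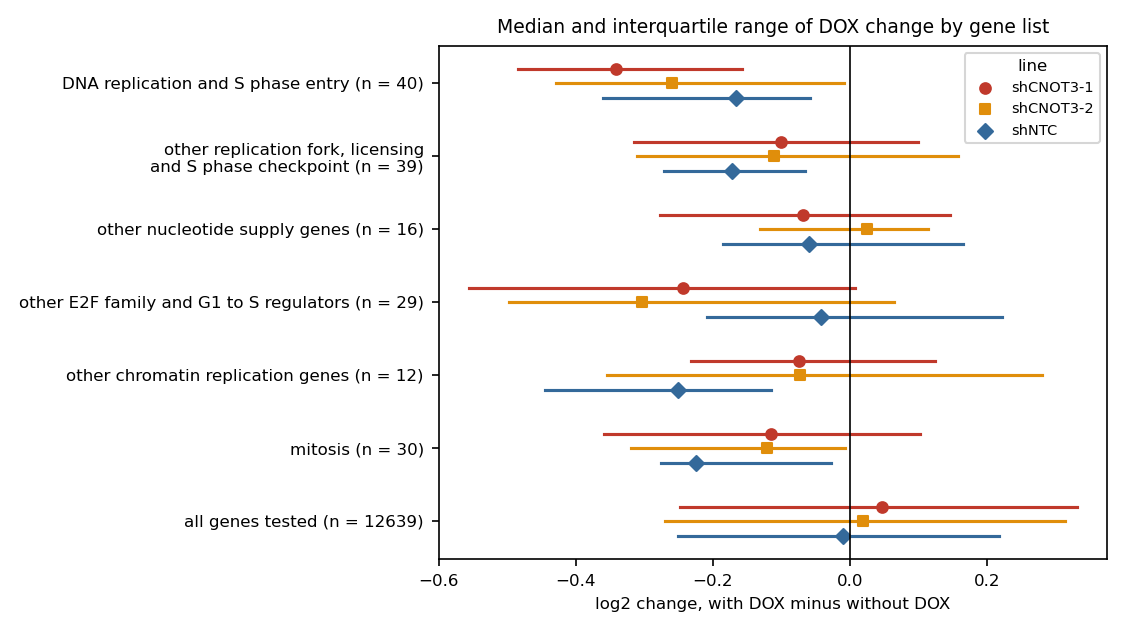
Median (point) and interquartile range (line) of the log2 DOX change (horizontal axis, with DOX minus without DOX) in shCNOT3-1, shCNOT3-2 and shNTC for the 40 replication genes, 5 neighbouring lists and the 12639 genes tested. The 40 replication genes and the other E2F family and G1 to S regulators have the lowest shCNOT3 medians, and the shNTC medians of all 6 lists lie below zero.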

How the data were processed

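The authors deposited 1 linear intensity per probe set and array. It was computed with MAS5, per the submitters' processing notes, at settings not given in the sources used here. The mean after trimming was 500.1 on every array and medians were 64.9 to 72.8. Arrays have no read depth, so their number limits the precision. Of 54675 probe sets, 62 were controls, 41097 had 1 gene, 1801 several and 11777 none listed. For 41043 of those with 1 gene the symbol was taken from the Entrez identifier, whether or not it differed from the annotated one. A gene was read from its brightest 1-gene probe set as log2(intensity + 1), and 7136 genes with a mean under the median of all probe sets other than controls (log2 5.96, an intensity of 61.3) were left out. limma 3.58.1 in R 4.3.3 was used (lmFit and eBayes with an intensity trend, 2-sided, Benjamini-Hochberg over 12639 genes, threshold 0.05), tested on simulated data. There the knockdown fit called 29.8% of 2-fold and 83.6% of 4-fold changes, with 6.42% of its calls false. The fit of the change beyond shNTC called 2% and 31.4%, with 16.4% of its calls false. Most simulated 2-fold changes thus went uncalled. The knockdown fit took the line as block and had no DOX term, with 2 residual degrees of freedom and a median prior of 7.61. Those 2 degrees hold the shNTC DOX change and the difference between hairpins. A fit with an added DOX term gave the change beyond shNTC, with 1 residual degree of freedom and a prior of 8.46. Pairing comes from the labels, which give every line in both DOX states, so no correlation check was needed. Figures used matplotlib 3.10.9 in Python 3.11.15.

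All 40 genes were named. Values on all 6 arrays were given for those with an unadjusted p under 0.05, those at least 1.5-fold lower in both hairpins and the 2 most different in each direction in shNTC, with up to 4 genes of lowest p per other list. CNOT3, PCNA, POLD3 and E2F1, and the RRM2, MCM6 and GINS2 probe sets, were added as the text turned on them. The genes and lists were chosen with earlier results of these data known. Alternatives changed the added constant, the filter, the probe set rule, the normalization, the variance trend, the block and the lines included.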

Additional observations from a re-analysis of the deposited data

Results flagged for a closer look

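Among the 40 genes, 3 differed between the shCNOT3 lines and shNTC at an unadjusted p under 0.05 in the test of the difference itself. These 7.5%, all lower, compare with 3.92% lower and 4.49% higher over all genes tested, so the count does not set the 40 apart. None held after adjustment over all genes. The log2 change beyond shNTC was -0.90 for GINS1 (adjusted p = 0.419), -0.71 for FEN1 (adjusted p = 0.561) and -1.17 for CCNE2 (adjusted p = 0.514). All 3 were lower in both hairpins, while GINS1 and CCNE2 were higher in shNTC.

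Probe sets not used for their genes were flagged only where both hairpin changes were at least 1.5-fold lower, also relative to shNTC. Higher ones could not be flagged. RRM2 201890_at had a mean change of -1.36 in the hairpins and -0.01 in shNTC. MCM6 238977_at had a mean change of -1.06 in the hairpins and 0.03 in shNTC. The probe sets used for RRM2 and MCM6 changed by -0.27 and -0.39. Other unused probe sets went otherwise. The dim GINS2 1557595_at was 1.28 and 1.71 in the hairpins against -0.90 in shNTC. FEN1 204768_s_at was -0.34 and -0.30 against -0.42.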

How the results depend on the processing

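The count of genes called for knockdown (37) was 3 with no filter on dim genes, 6 when probe sets of a gene were averaged, 56 with _s_at and _x_at probe sets left out where a gene had another, 0 without the intensity trend and 191 with no replicate block, and ran between 18 and 61 with 1 line left out (60 without shNTC, 61 without shCNOT3-1, 18 without shCNOT3-2). Beyond shNTC, 251 genes were called with no replicate block, against 0. Of the 40 genes, 5 instead of 8 had an unadjusted p under 0.05 without the trend, and between 3 and 7 with 1 line left out (3 without shCNOT3-1). With the mean of probe sets, 4 were at least 1.5-fold lower in both hairpins, and the shCNOT3-1 median was -0.24. With _s_at and _x_at left out the shCNOT3-2 median was -0.18.

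FEN1 passed with a stricter filter (adjusted p = 0.0486) and without shNTC (0.0461). Both its probe sets are _s_at, so no setting reads it from another type. RRM2 passed with those types left out, since 201890_at then stands for it (-1.36, adjusted p = 0.0162), and CCNE2 with no replicate block (-1.24, adjusted p = 0.0204). Over all alternatives the adjusted p ran between 0.0461 and 0.290 for FEN1, 0.0162 and 0.938 for RRM2, and 0.0204 and 0.313 for CCNE2. The mean hairpin change had the other sign for GINS2 (0.34), POLA2 (0.00926) and TYMS (0.0137) with the mean of probe sets, for MCM4 (0.0861), GINS2 (1.49) and POLA2 (0.60) with those types left out, and for CDT1 (0.0791) and ORC1 (-0.0746) with no replicate block. With 1 line left out the range was -0.18 to 0.0291 for CDC45, -0.56 to 0.19 for CDT1, -0.41 to 0.18 for RFC4, -0.18 to 0.00506 for CHAF1A, -0.35 to 0.0184 for UHRF1, -0.0390 to 0.13 for CCNE1, -0.29 to 0.29 for ORC1, -0.55 to 0.0338 for POLE, -0.43 to 0.12 for LIG1, -0.51 to 0.0513 for CHAF1B and -0.19 to 0.26 for SLBP. Leaving out a shCNOT3 line leaves 1 hairpin, so its value is that hairpin's and counts over both hairpins cannot be given, and the model beyond shNTC then has no residual degrees of freedom. The causes of these shifts were not tested. An added constant of 16, quantile normalization and centring on the median turned no gene's direction and moved no count of the 40 genes by over 1.5 times. Arrays of CNOT3 (46.9 to 228) and CDKN2D (42.4 to 248) reach below the filter at 61.3, so their changes rest on weak signal.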
